A study of Mus musculus with 16 samples.

Results

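The alpha class glutathione S-transferases were represented by Gsta2, Gsta3 and Gsta4, with 1 single-gene probe each among the 9596 probes of the array, so 3 of 6734 named genes. Gsta1 and Gsta13, further members of the class, were not analysed here. The probes were chosen by platform gene symbol, and the members and gene lists with earlier results of these data known. The samples were livers of 8 female APOE3-Leiden (E3L) mice, which express a variant form of human apolipoprotein E from a transgene, on a background over 99% C57BL6/JIco (generation N21). From 10 weeks of age and for 4 weeks the 8 mice ate a Western-type diet (diet W, holding 15 g of fat and 0.25 g of cholesterol in 100 g) with 0.04% cafestol and 0.02% kahweol by weight, diterpenes of coffee. The control was liver RNA of female E3L mice fed diet W alone, 7 by the study design, and carried the same transgene. Each treated liver was hybridised on 2 cDNA arrays against control RNA, giving 16 arrays.

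Glutathione S-transferases join the tripeptide glutathione to reactive foreign compounds and to products of lipid oxidation, which can then be exported and excreted. Alpha class subunits are abundant in hepatocytes. The Gsta2 product conjugates a broad range of electrophiles and also reduces lipid hydroperoxides. The Gsta3 product is known in mice for conjugating the epoxide of the mould toxin aflatoxin B1. The Gsta4 product prefers 4-hydroxynonenal, an aldehyde formed when membrane lipids are oxidised. In rodents several transferase genes are induced through the oxidative stress regulator NRF2, and coffee diterpenes are known to raise transferase activity.

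In the mouse assembly GRCm38.p6 (RefSeq), Gsta1, Gsta2 and Gsta4 lie on chromosome 9 and Gsta3 on chromosome 1. No protein-coding gene (0) lies between Gsta4 and Gsta1, and 4 lie between Gsta1 and Gsta2. The 250 bases before the start of Gsta2 (chr9:78347146-78347395, minus strand) and of Gsta3 (chr1:21240335-21240584, plus strand) are shown. The promoter set used held no window for Gsta4. Gsta2 gave the largest and Gsta3 the smallest diet difference of the members measured. Capitals mark matches on either strand to short motifs.
Gsta2: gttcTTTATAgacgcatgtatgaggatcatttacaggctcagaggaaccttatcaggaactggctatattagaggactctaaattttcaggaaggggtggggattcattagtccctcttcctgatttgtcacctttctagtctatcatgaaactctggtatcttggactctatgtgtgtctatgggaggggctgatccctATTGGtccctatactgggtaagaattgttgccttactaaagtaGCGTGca
Gsta3: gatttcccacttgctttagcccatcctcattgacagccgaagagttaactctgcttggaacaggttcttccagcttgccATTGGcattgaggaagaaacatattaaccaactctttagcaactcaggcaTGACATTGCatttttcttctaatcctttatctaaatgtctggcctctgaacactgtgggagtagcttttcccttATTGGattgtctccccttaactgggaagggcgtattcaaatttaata
The core of the antioxidant response element bound by NRF2, TGACNNNGC, had 1 match in Gsta3, starting 121 bases before the start, and 0 in Gsta2. It occurs in 10.2% of 32851 mouse promoter windows of this length. The dioxin response core GCGTG had 1 match in Gsta2, 7 bases before the start, and 0 in Gsta3, against 28.2% of all windows. CCAAT, read on the minus strand, occurred once in Gsta2 (50 bases before the start) and at 171 and 47 bases in Gsta3, against 33.8% of windows. TATAAA had 1 match in Gsta2, far from the start at 246 bases and on the minus strand, and 0 in Gsta3 (12.4% of windows). The consensus motif of HNF1, a liver transcription factor, was found in neither. The motifs did not overlap. The Gsta2 window aligned with that of Gsta1 at 71.7% identical positions and with that of Gsta3 at 51.7%. A match here describes letters and does not show that a factor binds.

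Values were deposited as log2 ratios between the channels, with RNA of a treated liver in Cy5 and control RNA in Cy3 on all arrays. Which channel was divided by which was not given in the sources used here. Signs are therefore printed as deposited, and "below 0" or "above 0" does not say in which diet a transcript was more abundant. Ratios were recorded to 1 decimal, so the smallest step from 0 was 0.14 on the log2 scale. Arrays held values for 8094 to 9314 probes. Precision is limited by the number of mice. Every pair of arrays correlated positively (r 0.75 to 0.91 within a mouse, 0.15 to 0.81 between mice, over probes). The test of each gene set the mean of 8 mice against 0. It leaves out the spread of control mice, and any dye effect particular to a gene would be part of all its ratios. No control sample stands alone in these data. Where the spread of 7 control mice is added below, it was not measured. It was assumed equal to the spread of the treated mice's ratios, for 7 independent control mice. No label says whether the control RNA was pooled. In bulk liver RNA, fewer cells of a type and less RNA per cell cannot be told apart.

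Gsta2 and Gsta4 differed clearly between the diets, on the same side of 0 in every mouse, while Gsta3 did not pass the test. Of the 3 genes 2 passed below 0 and 0 above, where 25.4% of the 8348 genes and unnamed probes tested passed below 0 and 18.0% above. The median of the 3 genes was -0.85, against -0.02 over all rows tested.

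Gsta2 had deposited log2 ratios on the 16 arrays of -1.77 at the lowest, -1 at the median and -0.585 at the highest, which are 1.5-fold to 3.4-fold differences. All 16 arrays lay below 0. The mean over mice was -1.11 ± 0.30 (SD, n = 8 mice), a 2.16-fold difference with a 95% interval of 1.90 to 2.45 (limma, adjusted p = 3.56e-06). By the size of the mean on either side of 0, Gsta2 had rank 13 of all rows tested, and rank 7 among those below 0. Its spread between mice was also wide, larger than that of 98.4% of the rows.

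Gsta4 had log2 ratios of -1.20 at the lowest, -0.85 at the median and -0.49 at the highest array, or 1.4-fold to 2.3-fold differences. It too lay below 0 on all 16 arrays. The mean was -0.85 ± 0.15 (SD, n = 8 mice), a 1.81-fold difference with a 95% interval of 1.68 to 1.94 (limma, adjusted p = 4.52e-07). It had rank 18 by size on either side of 0, and rank 10 among the rows below 0. Of all rows tested, 10.8% were below 0 in all 8 mice and 7.27% above 0 in all 8.

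Gsta3 had a log2 ratio of 0 on 9 arrays, -0.14 on 3 and 0.38 on 4. The positive arrays were both arrays of SY518Z and both arrays of TP4168, which each recorded a 1.3-fold difference. The other 6 mice lay at or 1 rounding step below 0. The mean was 0.07 ± 0.20 (SD, n = 8 mice) with a 95% interval of -0.06 to 0.20 (limma, adjusted p = 0.36). The mean was 0.02 without SY518Z and also 0.02 without TP4168. The spread of Gsta3 between mice was larger than that of 92.1% of the rows, although its mean was near 0.

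**Figure D1:**
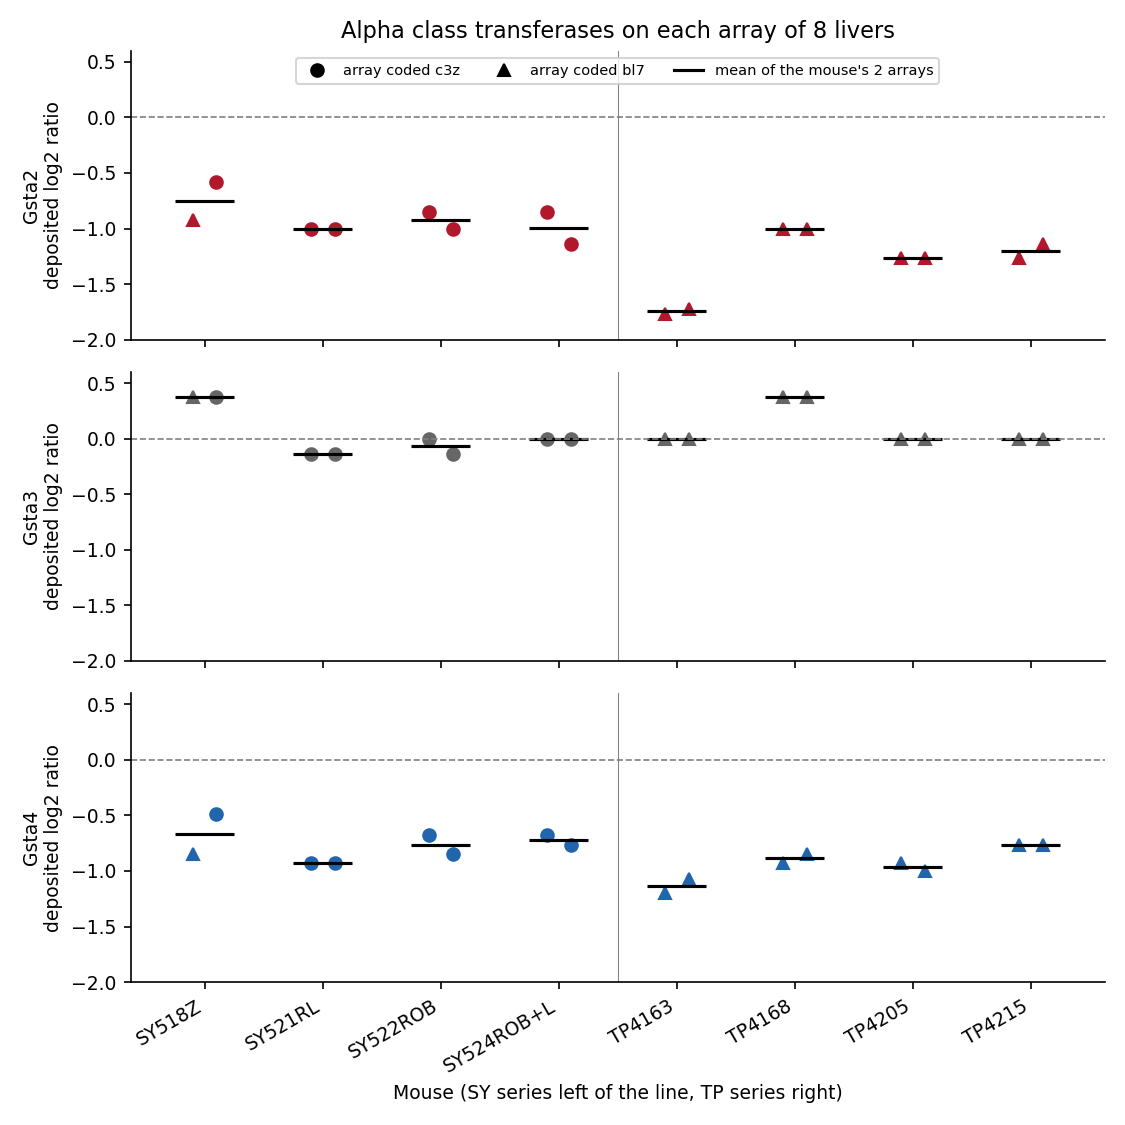
Deposited log2 ratio (vertical axis) of Gsta2, Gsta3 and Gsta4 on each of the 16 arrays, by mouse (horizontal axis). Circles are arrays coded c3z, triangles arrays coded bl7, and bars the mean of a mouse's 2 arrays. Gsta2 and Gsta4 lie below 0 in all mice, and Gsta3 lies above 0 only in SY518Z and TP4168.

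**Figure D2:**
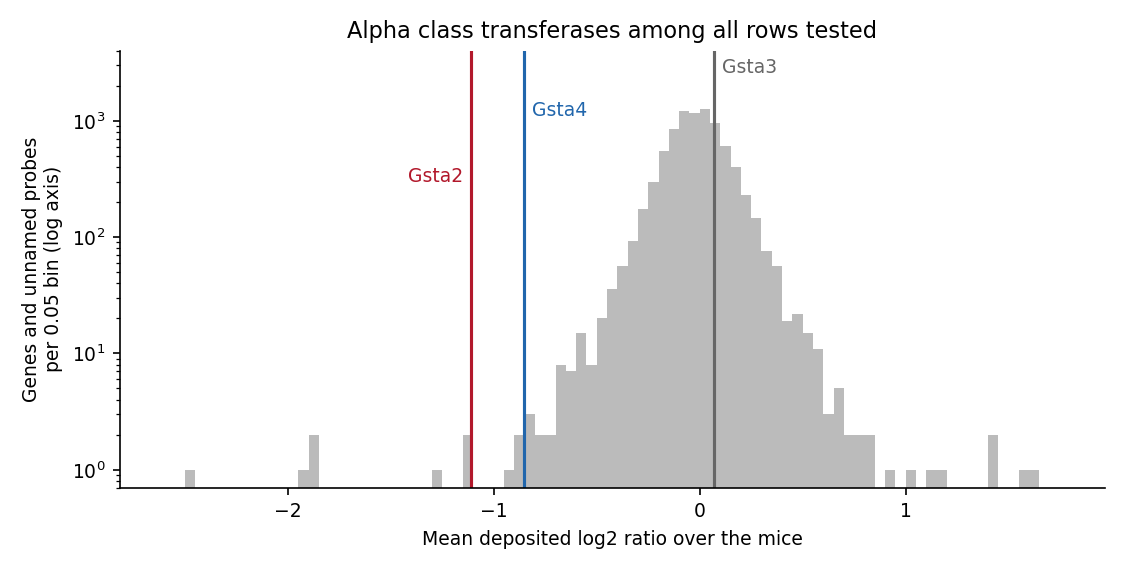
Number of genes and unnamed probes (vertical log axis) by mean deposited log2 ratio (horizontal axis), in bins 0.05 wide, for the 8348 rows tested. Vertical lines mark Gsta2 at -1.11, Gsta4 at -0.85 and Gsta3 at 0.07, the last inside the main mass.

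The members also differed from each other within the same mice. Gsta2 lay below Gsta3 by 1.18 on the log2 scale (difference -1.18 ± 0.29, SD, n = 8 mice, from -1.74 to -0.86), a 2.26-fold gap. Gsta4 lay below Gsta3 with a difference of -0.92 ± 0.21, from -1.27 to -0.69. Gsta2 and Gsta4 were closer, with Gsta2 lower by a difference of -0.26 ± 0.19, from -0.61 to -0.07, or 1.19-fold. Each of these 3 differences had the same sign in 8 of 8 mice (two-sided exact sign-flip permutation test, p = 0.00781, adjusted p = 0.00781 over 12 pairs, the smallest p that 8 mice allow). Any 8 differences of 1 sign give this p, so it does not compare the size of a gap with the spread between mice. A gap between ratios shows unequal change and gives no level of either transcript.

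The mu class genes Gstm1 and Gstm2 and the pi class gene Gstp1, which conjugate many electrophiles, served as the set for comparison. Gstm1 averaged -2.48 ± 0.23, Gstm2 -1.86 ± 0.27 and Gstp1 -1.88 ± 0.16 (SD, n = 8 mice). Gsta2 was nearer to 0 than Gstm1 by 1.37 ± 0.34, than Gstm2 by 0.75 ± 0.24 and than Gstp1 by 0.77 ± 0.34. The smallest gap was 0.16, between Gsta2 and Gstp1 in the mouse TP4163. For Gsta4 the gaps were 1.63 ± 0.22, 1.01 ± 0.20 and 1.03 ± 0.19 against the same 3 genes in that order. For Gsta3 they were 2.55 ± 0.30, 1.93 ± 0.37 and 1.95 ± 0.29. All of these 9 gaps were positive in 8 of 8 mice (exact sign-flip permutation test, adjusted p = 0.00781 for each). They hold for the genes compared and not for the mu and pi classes as a whole. Gstm5 (-0.45 ± 0.09) and Gstp3 (-0.42 ± 0.12) were nearer to 0 than Gsta2 and Gsta4, and Gstm6 (-1.93 ± 0.20) was farther. cDNA probes can also bind transcripts of close paralogs, such as Gsta1 for the probe of Gsta2, and the part of this in the ratios was not tested.

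**Figure D3:**
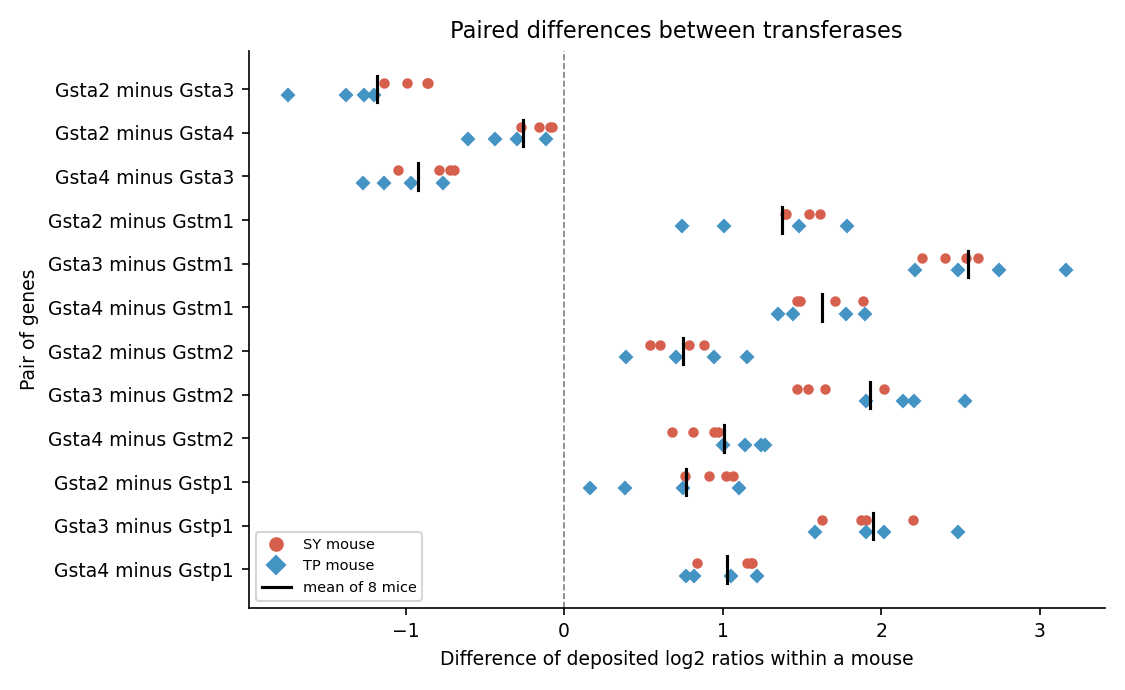
Difference of deposited log2 ratios within each mouse (horizontal axis) for 12 pairs of transferases (vertical axis). Circles are SY mice, diamonds TP mice and bars the mean of 8 mice. Every pair keeps 1 sign in all mice, and the pair of Gsta2 and Gsta4 lies nearest to 0.

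The mouse identifiers fall into the series SY and TP, whose meaning no label states. Array codes follow them (c3z for SY, bl7 for TP) except in SY518Z, which had 1 array of each. Gsta2 had mean log2 ratios of -0.76 in SY518Z, -1 in SY521RL, -0.92 in SY522ROB and -0.99 in SY524ROB+L, against -1.74 in TP4163, -1 in TP4168, -1.26 in TP4205 and -1.20 in TP4215. The TP mice were at or below the lowest SY mouse, with TP4168 level with SY521RL. The mean was -0.92 ± 0.11 in SY and -1.30 ± 0.32 in TP mice (SD, n = 4 each), a difference of 0.38 with a 95% interval of 0.11 to 0.66 (limma, adjusted p = 0.0955). It did not pass in this fit. With the 16 arrays entered singly and the mouse as a random block it did (limma, adjusted p = 0.0468), and over the other alternatives the adjusted p was 0.0596 to 0.504. Without TP4163 the difference was 0.24 (adjusted p = 0.108).

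Gsta4 had -0.67 in SY518Z, -0.93 in SY521RL, -0.76 in SY522ROB and -0.72 in SY524ROB+L, against -1.14 in TP4163, -0.89 in TP4168, -0.96 in TP4205 and -0.77 in TP4215. The 2 series overlapped. The difference was 0.17 with a 95% interval of -0.01 to 0.35 (limma, adjusted p = 0.224). For Gsta3 it was -0.05 with an interval of -0.30 to 0.20 (limma, adjusted p = 0.799). Of all rows, 5.70% differed between the series, a share that depended on single mice: 43 to 1249 rows passed when 1 mouse was left out. Gstm2 was the one of the 6 compared transferases that passed, with a mean of -1.62 in the SY mice, against -2.10 in the TP mice (limma, adjusted p = 0.00768).

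The arrays of the TP mice had a wider spread of all their log2 ratios, with an SD of 0.21 to 0.26, against 0.17 to 0.25 for SY arrays. The SY array at 0.25 was the bl7 array of SY518Z, and the c3z array of that mouse had 0.21. When every array was scaled to the same SD, the difference between the series was 0.18 for Gsta2 and 0.01 for Gsta4. In SY518Z, the array coded c3z gave Gsta2 -0.585 and Gsta4 -0.49, and the array coded bl7 gave -0.93 and -0.85. Gsta3 was 0.38 on both. Series, array code and array spread cannot be told apart in the other 7 mice. Gsta2 and Gsta4 passed against 0 within the arrays of 1 code: Gsta2 had -0.88 on c3z and -1.23 on bl7 arrays (limma, adjusted p = 0.00846 and 0.000872), Gsta4 had -0.72 and -0.92 (adjusted p = 0.0096 and 0.000391), and Gsta3 had 0.04 and 0.15 (adjusted p = 0.763 and 0.139, not called).

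Repeat arrays of a mouse showed how far single arrays differed. The SD between repeat arrays was 0.12 for Gsta2, 0.11 for Gsta4 and 0.03 for Gsta3, against 0.07 at the median of all rows. The SD between mouse means was 2.45 times the repeat SD for Gsta2 and 1.39 times for Gsta4, where the median row had 1.5. Both arrays of a mouse gave the same Gsta3 value in 7 of 8 mice, and differed by 1 rounding step in the other. With ratios rounded to 1 decimal and values this near 0, the repeat SD of Gsta3 is set largely by that step and is no measure of precision. The widest gap between repeats was that of SY518Z for Gsta2 (0.34) and Gsta4 (0.36). For Gsta4 the next widest was 0.17, in SY522ROB. The arrays of SY518Z carried different codes, so its gaps are not those of like arrays. They enter the repeat SDs above, and the ratio of 1.39 for Gsta4 therefore does not place it below the median row.

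Patterns across mice were compared by the correlation of mouse means over 6181 named genes with values in 8 mice. These points share the control RNA and the arrays, and the correlations are given as descriptions. Gsta2 and Gsta4 had r = 0.85 (rho = 0.90), both lowest in TP4163 and highest in SY518Z. Without the 2 mice farthest from the median of Gsta2, TP4205 and TP4163, r was 0.39. Gsta3 had r = 0.36 with Gsta2 and 0.29 with Gsta4. With Gstm1, Gsta2 had r = 0.20 and Gsta4 0.42.

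The 3 genes most like Gsta2 were Tst, a mitochondrial sulfurtransferase (r = 0.96), the transcription factor Zfhx3 (r = 0.95) and the immune regulator Tnfaip8l2 (r = 0.95), and r stayed between 0.76 and 0.89 without TP4205 and TP4163. Tst averaged 0.35, on the other side of 0 from Gsta2, and was highest in SY518Z (0.54) and lowest in TP4163 (0.14). Zfhx3 averaged -0.18 and Tnfaip8l2 -0.28. For Gsta4 they were the proteasome subunit Psma4 (r = 0.94), Fam25c (r = 0.94) and Sec61b, a subunit of the protein translocation channel (r = 0.93), all lowest in TP4163 and highest in SY518Z. For Gsta3 they were the amidase Nit2 (r = 0.95), the heme-binding protein Hebp1 (r = 0.94) and the glutathione peroxidase Gpx1 (r = 0.94). Without SY518Z and TP4168 r was 0.43 for Nit2, 0.22 for Hebp1 and 0.85 for Gpx1. Gpx1 was at 0.26 in SY518Z and 0.14 in TP4168, and between -0.14 and 0 in the other 6 mice. Gsta3 also lay between -0.14 and 0 in those 6 mice. Both ranges are 1 rounding step wide, so the value of 0.85 rests on rounding levels and is no measure of likeness.

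Among the other transferases the sides were mixed. Of 10 further cytosolic transferases tested, 6 passed below 0 and 3 above, with a median of -0.43. The shares over all rows tested were 25.4% below and 18.0% above. The lowest were Gstm1, Gstm6 (-1.93 ± 0.20), Gstp1 and Gstm2. Above 0 were the zeta class gene Gstz1 (0.52 ± 0.17), whose product takes part in tyrosine breakdown, the theta class gene Gstt2 (0.21 ± 0.13) and the omega class gene Gsto1 (0.13 ± 0.15, limma, adjusted p = 0.0389). Gstt1 had 0.11 ± 0.19 (adjusted p = 0.141). The count above 0 was 2 without SY518Z, SY521RL, TP4168, TP4205 or TP4215, and 2 with the spread of 7 control mice added to the error. Gsta3 thus stood beside Gstt1 as the cytosolic transferases that did not pass. Of 4 kappa and microsomal family members, the kappa class gene Gstk1 (0.33 ± 0.11) and the leukotriene synthase gene Ltc4s (0.09 ± 0.09) passed above 0, and Mgst3 (-0.32 ± 0.11) and Alox5ap (-0.12 ± 0.12) below. Ltc4s did not pass without SY521RL, SY518Z, TP4215, SY524ROB+L, TP4205 or SY522ROB, nor Alox5ap without SY521RL, SY518Z, TP4168, TP4205 or TP4163 (adjusted p up to 0.0968 and 0.0831).

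**Figure D4:**
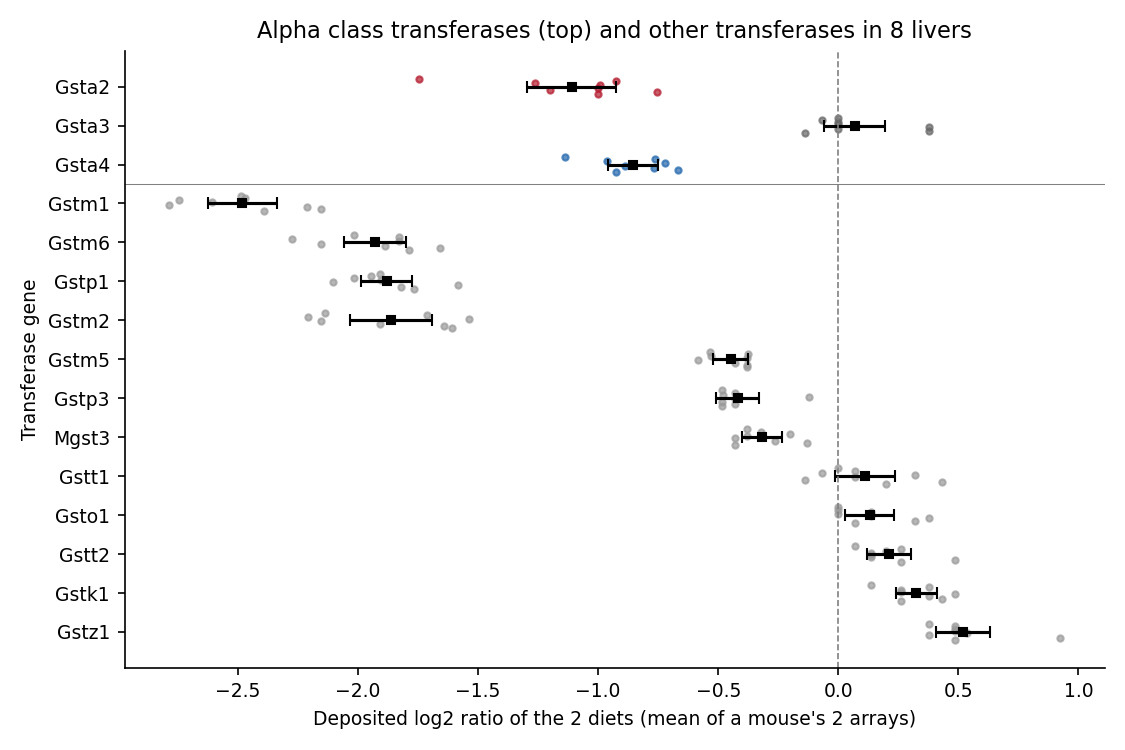
Deposited log2 ratio (horizontal axis) of each transferase gene tested (vertical axis), with Gsta2, Gsta3 and Gsta4 above the line. Dots are means of the 2 arrays of a mouse, squares the mean of 8 mice and bars its 95% interval from limma. Gsta2 and Gsta4 lie between the group around Gstm1 and the genes near 0, and Gsta3 lies with Gstt1 and Gsto1.

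Of 6 genes of glutathione synthesis and turnover, 4 passed below 0, the side of Gsta2 and Gsta4, and 0 above, with a median of -0.18. Over all rows tested, 25.4% passed below 0 and 18.0% above. The subunits of the rate-limiting enzyme had -0.33 ± 0.14 (Gclm) and -0.21 ± 0.20 (Gclc), glutathione synthetase Gss had -0.27 ± 0.11 and the dipeptidase Dpep1 -0.15 ± 0.08. The gamma-glutamyltransferase family genes Ggt5 (0.03 ± 0.10) and Ggt6 (0.07 ± 0.08) did not pass. Of 8 peroxidase and thiol redox genes, 3 passed below 0 (thioredoxin reductase Txnrd1 at -0.33 ± 0.22, Prdx4 at -0.19 ± 0.11 and thioredoxin Txn1 at -0.17 ± 0.12) and 1 above (Prdx2 at 0.09 ± 0.08). Prdx2 did not pass without SY518Z, TP4215, TP4168, SY524ROB+L, TP4205 or SY522ROB (adjusted p up to 0.121). With the spread of 7 control mice added to the error, Gclc (adjusted p = 0.0932), Txn1 (0.0598) and Prdx2 (0.215) did not pass.

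NRF2 targets outside the transferases lay mostly on the same side. Of 18 tested, 15 passed below 0 and 0 above (median -0.33), where 25.4% of all rows tested passed below 0 and 18.0% above. The count below 0 was 15 or 16 when any 1 mouse was left out, and 11 with the spread of 7 control mice added. The epoxide hydrolase Ephx1 had -1.14 ± 0.16, beside -1.11 ± 0.30 for Gsta2, and carbonyl reductase Cbr1 had -0.91 ± 0.15, beside -0.85 ± 0.15 for Gsta4. The ferritin heavy chain Fth1 had -0.70 ± 0.14 and transketolase Tkt -0.46 ± 0.12. Gclc, Gclm, Txnrd1 and Txn1 stand in this list and in the lists above.

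Other enzymes act on aldehydes, among which are substrates of the Gsta4 product. Of 14 tested, 3 passed below 0, among them Cbr1 and Cbr3 (-0.44 ± 0.27), and 3 above, among them the fatty aldehyde dehydrogenase Aldh3a2 (0.51 ± 0.18) and the class III alcohol dehydrogenase Adh5 (0.26 ± 0.13), with a median of -0.03. These shares are near the 25.4% below and 18.0% above over all rows tested. Of 6 exporters of conjugates, 0 passed below 0 and 2 above, Abcc5 (0.26 ± 0.13) and the canalicular pump Abcc2 (0.12 ± 0.13). Abcc2 did not pass without SY521RL, SY518Z, TP4168, SY524ROB+L, SY522ROB or TP4163 (adjusted p up to 0.097). Of 5 regulators known for acting on transferase genes, the NRF2 inhibitor Keap1 (-0.14 ± 0.08) and Nfe2l1 (-0.10 ± 0.07) passed below 0, and the xenobiotic receptor Nr1i2 (0.22 ± 0.20) and Hnf4a (0.10 ± 0.08) above. Nfe2l1 did not pass without TP4205, nor Hnf4a without SY522ROB or TP4163 (adjusted p up to 0.0514 and 0.0629). With the spread of 7 control mice added, Keap1 passed (adjusted p = 0.0493), and Nr1i2 (0.0857), Nfe2l1 (0.125) and Hnf4a (0.144) did not.

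Ratios give no level, so the tissue label could not be checked by the abundance of its markers. Of 9 hepatocyte markers tested, 2 passed below 0 and 2 above (median 0.01), with albumin, Alb, at 0.14 ± 0.30 (not called). These shares are near the 25.4% below and 18.0% above over all rows tested, beside which the marker counts that follow also stand. Without SY518Z, 4 passed below 0. Of 11 Kupffer cell and macrophage markers, 8 passed below 0 and 0 above (median -0.23), and their mean per mouse ran from -0.44 to 0.12. Those that did not pass were Clec4f (-0.05 ± 0.11), Adgre1 (-0.03 ± 0.21) and Marco (-0.16 ± 0.48). Of 11 stellate cell markers, 6 passed below 0 and 0 above, with means per mouse of -0.43 to -0.03. With the spread of 7 control mice added, 2 of the stellate and 6 of the Kupffer cell markers passed. Bile duct markers had 3 of 5 below and 1 above, endothelial markers 2 of 4 below and 0 above, and lymphocyte markers 3 of 7 below and 1 above. The lymphocyte count below 0 was 1 without SY518Z, and 1 below and 0 above with the spread of control mice added. Gsta2 and Gsta4 were nearest to 0 in SY518Z. In that mouse the means of the stellate (-0.43), bile duct (-0.31), lymphocyte (-0.17) and endothelial markers (-0.15) were the lowest of the 8 mice. Its mean of the hepatocyte markers (0.24) was the highest, and that of the Kupffer cell markers (-0.38) was neither. Gsta2 and Gsta4 were farthest from 0 in TP4163. There the Kupffer cell markers had their lowest mean (-0.44), and the hepatocyte markers had 0.13. The stellate (-0.21), bile duct (-0.12), lymphocyte (-0.09) and endothelial markers (-0.13) of TP4163 were also below 0. The part of these markers in the results was not tested.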

How the data were processed

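Liver poly(A) RNA was compared on 2-colour GEM cDNA arrays, with RNA of a cafestol-fed mouse in Cy5 and control-diet RNA in Cy3, per the labels. The authors deposited log2 ratios. How background, normalization and blanks were handled, and which channel was the divisor, was not given in the sources used here. Undoing the log gave a ratio with 1 decimal, or its inverse, for all 144660 values (10 times the ratio within 0.01 of a whole number), and every array had a median of 0.

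Probes were named from the platform annotation: 7407 had 1 gene symbol, 437 several and 1752 none. Entrez identifiers in a RefSeq table changed 0 symbols. Probes of a gene were averaged, then the 2 arrays of a mouse. Values in at least 6 of 8 mice were required, which kept 8348 of 8923 genes and unnamed probes. These were tested against 0 with limma 3.58.1 under R 4.3.3 (two-sided moderated test from lmFit and eBayes, adjusted by Benjamini-Hochberg, threshold 0.05), and between SY and TP mice with 2 groups. Mice are the replicates. Pairs of transferases were compared by exact sign-flip permutation over mice. The tests were also run on simulated data with independent noise on each array. In the data the arrays of a mouse share a part (block correlation 0.64), so no error rate is taken from that simulation. Promoter windows came from RefSeq (GRCm38.p6), where Gsta2 and Gsta3 were matched, and were aligned with Biopython 1.88. Figures used matplotlib 3.10.9. A planned comparison of probes within a member was not made, because each has 1 probe.

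The members and gene lists were chosen with earlier results of these data known. Besides the members, Gstm1, Gstm2 and Gstp1, the named genes are the 4 called genes farthest from 0 in each list and the 3 genes with the highest correlation to each member. Gstm5, Gstp3, Gstz1, Gstt1, Gstt2, Gsto1, Ggt5, Ggt6, Alb, Clec4f, Adgre1 and Marco were named after their values were seen. Alternatives covered centring, scaling, quantile normalization, single probes, blanks, moderation, single arrays, array codes and identifier series. They also covered a minimum fold, an assumed spread of control mice and each mouse left out.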

Additional observations from a re-analysis of the deposited data

Results flagged for a closer look

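Of 132 groups of mice examined for the named genes and pairs, 6 held a mouse far from the others. For independent, unrounded values chance alone gives about 1 in 20. These values are rounded and the groups share mice and genes, so the share that chance gives here is not known. Gsta3 in TP4168 was 0.38, where the other 3 TP mice were at 0. The difference Gsta4 minus Gstp1 was 0.84 in SY521RL, against 1.15 to 1.18 in the other SY mice. In SY518Z, Fth1 was at -0.585, against -0.85 to -0.81 in the other SY mice, Adh5 at 0.54, against 0.14 to 0.20, and Ltc4s at 0.20, against 0.14. Nfe2l1 in TP4205 was at -0.20, against -0.14 in the other TP mice. The gaps of Ltc4s and Nfe2l1 are the size of 1 rounding step on 1 array.

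The difference between the SY and TP series passed the test of the difference itself (limma) for 3 named genes, none of them an alpha class gene. Gstm2 differed by 0.48 (SY minus TP, adjusted p = 0.00768), Gstm6 by 0.31 (adjusted p = 0.0475) and Gclm by 0.23 (adjusted p = 0.0447). Of all rows tested, 5.70% passed, and 43 to 1249 rows did with 1 mouse left out. Gstm6 and Gclm lay close to the threshold of 0.05. Results for these 3 genes without single mice are not given here. The array codes nearly follow the series and cannot be told apart from them.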

How the results depend on the processing

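Gsta2 and Gsta4 kept their side of 0 and passed under 17 alternatives and without any 1 mouse, with means of -1.30 to -0.88 for Gsta2 and -0.94 to -0.72 for Gsta4. Gsta3 passed under none of the same alternatives (0.02 to 0.15). The 12 paired differences kept their sign under every alternative run. Scaling by the median absolute value changed nothing, since it was equal on all arrays, and scaling to a common SD was added after seeing the data. Of all rows, 3622 passed against 0, and 2159 did in SY mice only, 2191 on c3z arrays only, 123 against a minimum of 1.2-fold and 1811 with the spread of 7 control mice added. For SY minus TP, 476 rows passed, and 0 did on the first arrays (limma, 1467 at an unadjusted p under 0.05), 228 on the second arrays and 940 without the bl7 array of SY518Z. Without 1 mouse the count was 43 (SY521RL), 52 (SY524ROB+L), 57 (SY522ROB), 77 (TP4205), 183 (TP4215), 188 (TP4168) or 1249 (SY518Z), and 569 without TP4163. Gsta2 passed between the series, at 0.38, in 1 alternative, the 16 arrays blocked by mouse. The causes were not tested. Signal over background was not analysed here.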
